A study of Mus musculus with 4 samples.

Results

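The mitochondrial carrier family was read from liver RNA of WT and DDI2-KO mice: every protein-coding gene whose mouse symbol starts with Slc25, together with Ucp1, Ucp2 and Ucp3. This rule gave 50 genes of the 48709 in the count files, and 1 pseudogene with a Slc25 symbol was left out. Of the 50 carriers, 42 had enough reads for the test and 8 did not. The carriers were placed in 9 classes, mainly by the substrate each is known to move. A class of 9 carriers was left unassigned.

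Mitochondrial carriers are membrane proteins that exchange metabolites between the cytosol and the mitochondrial matrix, nearly all of them across the inner membrane. ADP/ATP and phosphate carriers serve oxidative phosphorylation, citrate and malate carriers link the matrix to fat synthesis and to the transfer of reducing equivalents, and the ornithine and aspartate carriers serve the urea cycle of the liver. Other members carry carnitine esters, iron, nucleotides, glutathione or coenzymes, and the uncoupling proteins are known for proton leak.

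Liver RNA came from 4 samples of untreated C57BL/6 mice, 2 WT and 2 DDI2-KO, with mRNA libraries prepared by a stranded Illumina protocol. The labels give the genotype of the DDI2-KO samples as DDI2-/- and name no tissue-specific deletion, whereas the study's methods describe one. DDI2 is an aspartic protease of the ubiquitin-proteasome system, and the comparison asks which liver transcripts differ without it. By those methods the DDI2-KO animals carried floxed DDI2 alleles and Cre recombinase driven by the albumin promoter, which is active in hepatocytes, and the WT animals were littermates. The matings that the study describes joined floxed parents with and without Cre, so littermate controls without Cre may carry the floxed alleles too. The methods give an age of 6 to 12 weeks and both sexes for all experiments, and the labels give neither for these samples. The libraries held 34109018 and 31532247 gene reads in WT against 25582344 and 22501208 in DDI2-KO, so that 3 counts, taken as the limit of detection, corresponded to 0.0892 to 0.131 CPM, a library's reads on a gene scaled to a common total with TMM factors. Such limits cover counting error only. Ddi2 itself, counted over the whole gene, had 4749 and 3812 reads in WT against 4068 and 3777 in DDI2-KO, with a log2 fold change of 0.28 and an edgeR adjusted p of 0.349. The whole-gene count therefore did not show the deletion, and the genotype stands as labelled. Hepatocyte markers, 8 in all, were abundant in each library, with a median log2 fold change of 0.0076. Among markers of other liver cells, 3 of 5 endothelial markers had positive and 2 negative log2 fold changes, with a median of 0.039. Of these 5, Stab2 was lower in DDI2-KO at -1.10 (edgeR adjusted p = 0.0288). All 5 stellate markers had negative log2 fold changes with a median of -0.42, as did 4 of 5 lymphocyte markers with the same median, and none of these passed the threshold. The biliary markers had a median of 0.32, 4 of 5 being positive, with no call. The part of these cells in the carrier results was not tested.

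The promoter windows of Slc25a3, Slc25a5 and Slc25a11 are shown because these were the 3 carriers past the test. They are RefSeq windows of GRCm38.p6, from 250 bases before to 50 bases after an annotated start, written on the strand of the gene. The window of Slc25a3 is chr10:91123918-91124217 on the minus strand, that of Slc25a5 is chrX:36795347-36795646 on the plus strand, and that of Slc25a11 is chr11:70646990-70647289 on the minus strand. Capitals mark the core of the antioxidant response element, TGACNNNGC, in Slc25a3 and Slc25a5 and the CCAAT box, CCAAT, in Slc25a11.
Slc25a3: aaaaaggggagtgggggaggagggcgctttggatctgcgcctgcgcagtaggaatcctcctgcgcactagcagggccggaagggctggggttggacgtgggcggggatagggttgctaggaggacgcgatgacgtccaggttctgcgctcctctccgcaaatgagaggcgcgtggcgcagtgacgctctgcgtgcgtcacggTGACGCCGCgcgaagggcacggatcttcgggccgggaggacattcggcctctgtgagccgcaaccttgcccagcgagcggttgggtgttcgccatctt
Slc25a5: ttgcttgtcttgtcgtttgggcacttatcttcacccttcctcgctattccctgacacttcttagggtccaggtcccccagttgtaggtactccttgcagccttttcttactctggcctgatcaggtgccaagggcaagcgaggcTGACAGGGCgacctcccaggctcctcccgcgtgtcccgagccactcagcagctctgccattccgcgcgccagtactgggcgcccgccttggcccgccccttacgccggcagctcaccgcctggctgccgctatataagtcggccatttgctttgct
Slc25a11: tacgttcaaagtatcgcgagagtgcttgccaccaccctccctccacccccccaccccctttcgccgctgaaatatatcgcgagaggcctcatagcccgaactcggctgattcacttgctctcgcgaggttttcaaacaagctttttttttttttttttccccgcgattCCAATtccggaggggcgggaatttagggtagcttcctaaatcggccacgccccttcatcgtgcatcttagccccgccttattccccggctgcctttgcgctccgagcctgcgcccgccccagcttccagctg

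The antioxidant response element is the sequence bound by NRF1 and NRF2, and NRF1 is a known substrate of DDI2. Its core began at position -48 of the Slc25a3 window and at position -106 of the Slc25a5 window, counted from the start site, and was not found in the Slc25a11 window. On either strand it was found in 10 of the 33 tested carriers that had a window, or 30.3%, against 16.7% of all tested genes with a window. By windows, 13 of the 49 carrier windows, or 26.5%, held it, against 12.4% of all 32851 windows. These 13 windows belonged to 10 carriers, since up to 3 windows of a carrier can overlap and repeat the same stretch. Besides Slc25a3 and Slc25a5, these carriers were Slc25a14, Slc25a23, Slc25a25, Slc25a33, Slc25a38, Slc25a40, Slc25a53 and Ucp2. The median GC content was 59.7% in carrier windows and 52.7% in all windows. CCAAT was found on either strand in 44.9% of carrier windows and 37.4% of all windows. The site of nuclear respiratory factor 1, GCGCATGCG, was found in 0 carrier windows and in 1.75% of all windows. That of estrogen-related receptors, TNAAGGTCA, was found in 0 and in 1.28%. In windows of tested genes the shares were 3.35% and 0.83%. At such shares few matches are expected in 49 windows, so these counts of 0 do not set the carriers apart. RefSeq windows were at hand for 39 of the 50 carriers, and a match of letters is a description of the window, not of binding.

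Liver carriers spanned a wide range of transcript levels, and a few made up most of the family. The level is given as CPM per kilobase, the scaled count divided by the length of all annotated exons of the gene, so that genes can be compared. The mean over the 4 libraries was at least 10 for 16 carriers, from 1 to 10 for 17 and under 1 for 17. The 5 highest, Slc25a5, Slc25a39, Slc25a1, Slc25a23 and Slc25a47, held 57.4% of the summed level of the family. They carry ADP and ATP, glutathione, citrate and ATP-Mg with phosphate, while Slc25a47 is a carrier found mainly in liver. The level of Slc25a5 was 163.9 CPM per kilobase and ranked 222 among all annotated genes. The next 4 stood at 97.8, 89.4, 84.8 and 79.1, and in WT alone their ranges were 100.3 to 110 for Slc25a39, 78.3 to 89.5 for Slc25a1, 95.4 to 96.4 for Slc25a23 and 61.2 to 70.7 for Slc25a47. In WT these ranges were apart, whereas over the 4 libraries the 4 carriers overlapped, so their order was not resolved across the genotypes.

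The length used matters for this order. The exon union was 4.14 times as long as the coding transcript for Slc25a3 and 2.39 times for Slc25a25. With the protein-coding transcript of longest coding sequence in its place, a choice made after seeing the data, the level of Slc25a3 was 151 in place of 36.5 CPM per kilobase and its place in the family moved from 9 to 3. The same change took Slc25a47 to 149 and Slc25a25 from 15.9 to 37.8. Slc25a5 and Slc25a39 remained at places 1 and 2, and the 5 highest carriers, now with Slc25a3 in place of Slc25a1, held 55.1%. The order of all 50 carriers by the 2 lengths had a Spearman correlation of 0.988, given as a description. Fold changes between the genotypes do not depend on which length divides the counts.

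**Figure D1:**
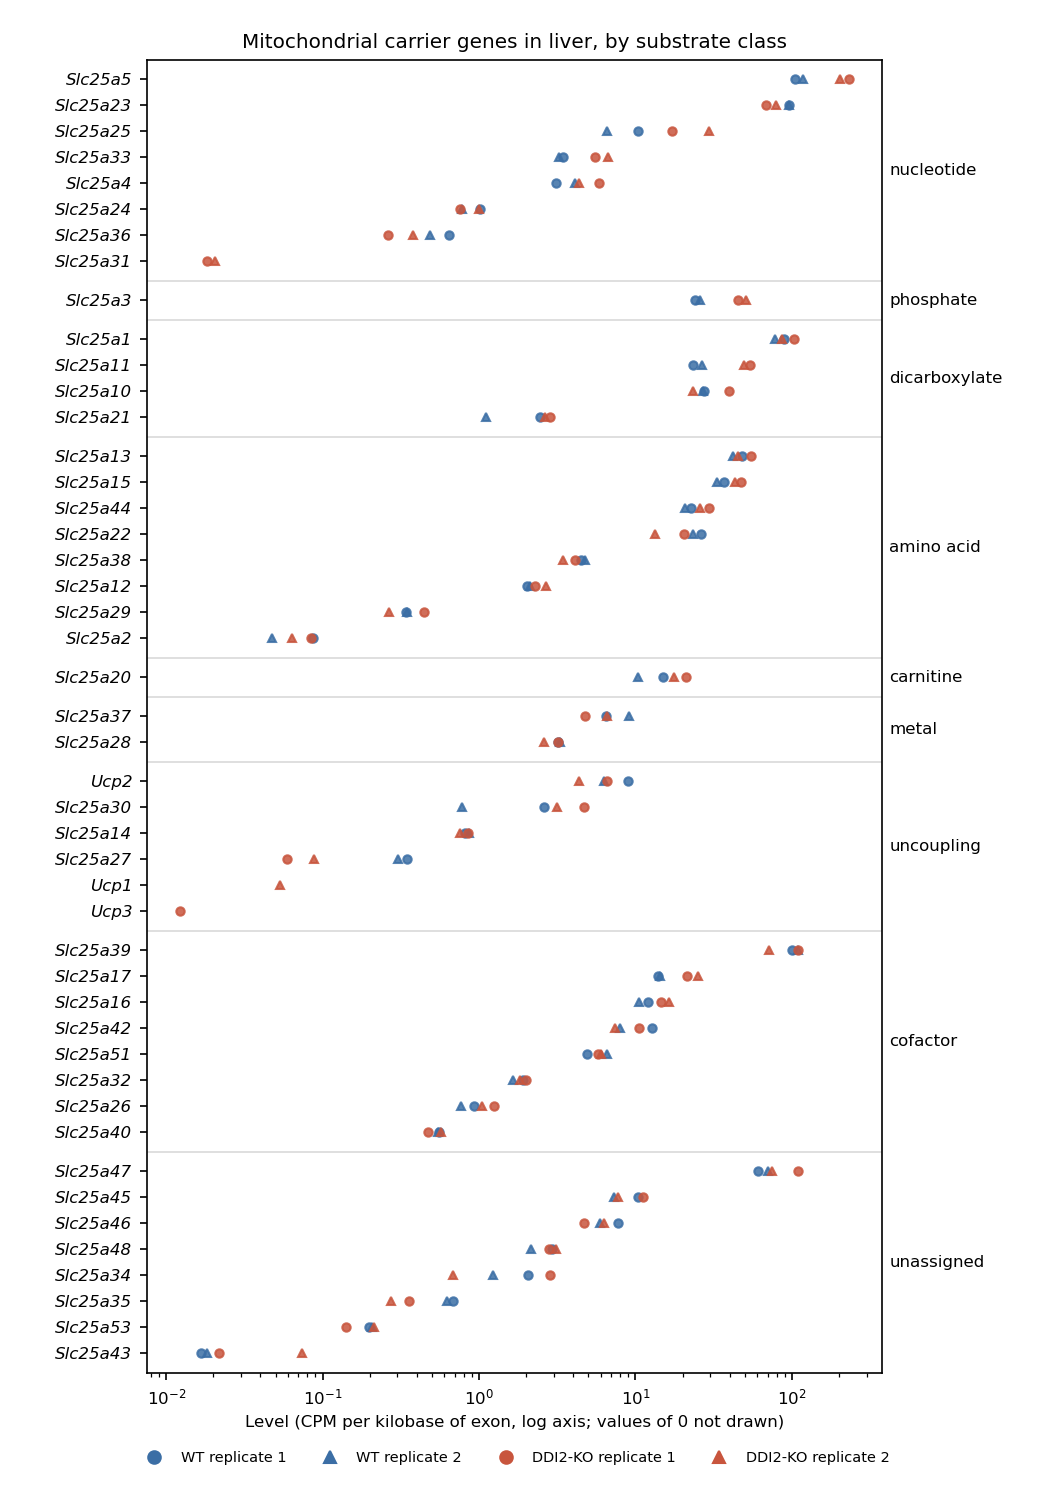
Level of carriers with at least 1 read, in CPM per kilobase of exon on a log axis, by substrate class. Blue stands for WT and red for DDI2-KO, circles for replicate 1 and triangles for replicate 2. Slc25a5 has the highest points of the family, and the red points of Slc25a5, Slc25a3 and Slc25a11 lie to the right of the blue ones.

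The 8 carriers that could not be tested were at the limit of detection in liver. Slc25a18, a glutamate carrier, Slc25a41, an ATP-Mg/phosphate carrier, and Slc25a54 had 0 reads in all 4 libraries, which allows up to 0.0892 CPM in the deepest and 0.131 CPM in the shallowest. Slc25a31, the testis form of the ADP/ATP carrier, had 0 and 0 reads in WT against 1 and 1 in DDI2-KO. Slc25a43 had 1, 1, 1 and 3 reads, and Slc25a2, another ornithine carrier with a single exon, had 4, 2, 3 and 2 in the same order of libraries. Ucp1, the uncoupling protein of brown fat, had 0, 0, 0 and 2 reads, and Ucp3, the muscle form, had 0, 0, 1 and 0. No fold change is given for these genes. Of 5 brown adipocyte markers, Cidea, Adipoq and Cox8b were each at or under 0.116 CPM in every library. Cox7a1 was at 0.476 and 0.906 CPM in WT and at 1.66 and 1.57 in DDI2-KO, with a log2 fold change of 1.23 and an edgeR adjusted p of 0.135. Elovl3 varied within both genotypes, with 2.498 and 0.065 CPM in WT and 2.63 and 0.22 in DDI2-KO.

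Several carriers at low level lay beside a carrier at a higher level. There were 5 pairs of carriers with under 50 kilobases between them, a grouping made after the values were seen, and each pair had unequal levels. On chromosome X (GRCm38), Slc25a43 ends 18448 bases before Slc25a5, with mean levels of 0.032 and 163.9 CPM per kilobase. On chromosome 17, Slc25a41 at 0 reads lies 2056 bases from Slc25a23 at 84.8. On chromosome 12, Slc25a29 and Slc25a47 point away from each other with 162 bases between them and stood at 0.35 and 79.1. On chromosome 7, Ucp3 ends 6904 bases before Ucp2, at 0.0031 and 6.53. On chromosome 3, Slc25a54 and Slc25a24 are 6461 bases apart, at 0 and 0.89.

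Between the genotypes, 3 carriers rose in DDI2-KO and none fell at an adjusted p under 0.05. In the quasi-likelihood test of edgeR, adjusted over 13699 genes by Benjamini-Hochberg, 1.33% of all tested genes were called higher and 1.20% lower. The 3 were Slc25a11, Slc25a5 and Slc25a3, with fitted fold changes from 1.93 to 2.06. Of the 42 tested carriers, 26 had a positive and 16 a negative log2 fold change, with a median of 0.10 against -0.015 over all tested genes. The 2 DDI2-KO libraries lay above both WT libraries for 16 carriers and below both for 6, while 28.0% and 27.7% of all tested genes did so. At an unadjusted p under 0.05 in the same test there were 12 carriers, 8 higher and 4 lower. The share of all tested genes at that cut is not given here, so these counts are not read as a trait of the carriers. DESeq2 called 6 carriers higher and 0 lower, while of all 13699 genes it called 932, of which 508 were higher. With limma-voom the carrier counts were 1 and 0, beside 136 genes called in all, of which 72 were higher. Most differences were small, with 28 carriers within 0.5 log2 units of no difference and 5 past 1. In bulk liver, fewer cells of a type and less RNA per cell cannot be told apart.

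The calls rested on both WT libraries. Without WT replicate 2 no carrier was past the threshold, and without WT replicate 1 the 2 carriers past it were Slc25a25 and Slc25a30, while Slc25a11, Slc25a5 and Slc25a3 kept log2 fold changes of 0.95, 0.89 and 0.89. Slc25a5 was also lost without DDI2-KO replicate 1, at a log2 fold change of 0.88 and an adjusted p of 0.0593. The DDI2-KO libraries were the shallower pair, and reads that aligned to more than 1 place amounted to 65.8% and 51.8% of the gene reads in WT and 49.2% and 47.3% in DDI2-KO. The part of these differences in the results was not tested.

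**Figure D2:**
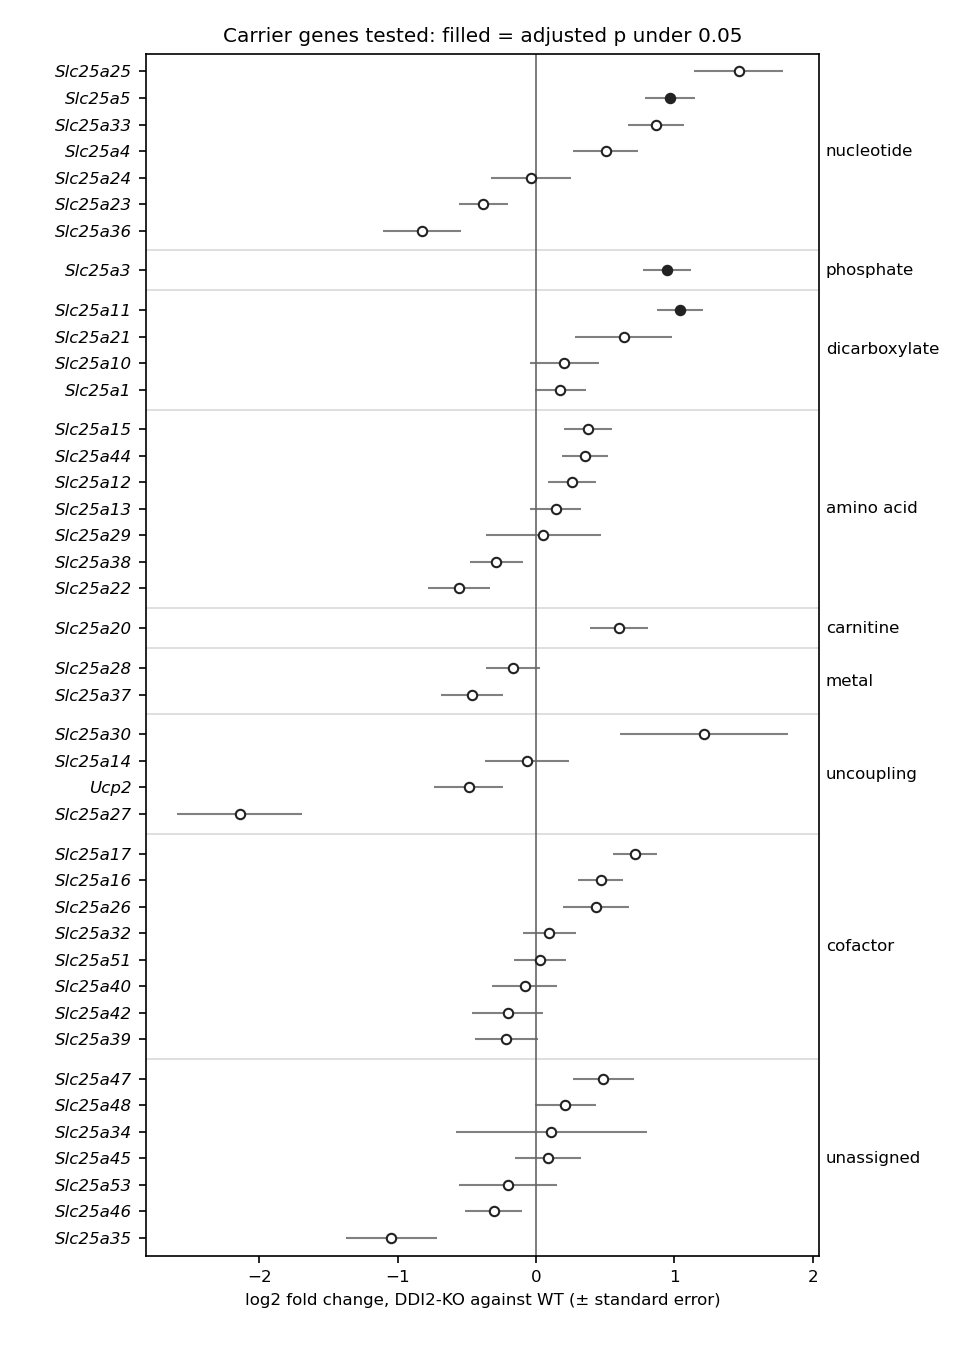
Log2 fold change of 41 tested carriers, DDI2-KO against WT, with its standard error, by substrate class. Filled points mark Slc25a5, Slc25a3 and Slc25a11, the carriers with an adjusted p under 0.05, and the lowest point is Slc25a27 at -2.14.

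The phosphate carrier and 1 of the ADP/ATP carriers rose together in DDI2-KO. Slc25a3 (ENSMUSG00000061904; chromosome 10, 91116574 to 91124059), the carrier that brings in the phosphate used by ATP synthase, had 4452 and 4461 reads in WT against 6469 and 6534 in DDI2-KO. Scaled, these were 138 ± 8.46 CPM and 267 ± 24.3 CPM (SD, n = 2 each). No DDI2-KO library came near a WT library, and the log2 fold change was 0.95 with a standard error of 0.17 and an edgeR adjusted p of 0.0406. Slc25a3 was the only member of its class, and 0.652% of its 50-base stretches occur in other genes.

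Slc25a5 (ENSMUSG00000016319; chromosome X, 36795651 to 36798807) encodes ANT2, the ADP/ATP carrier of most tissues other than heart and muscle. It had 5784 and 5959 reads in WT against 9818 and 7695 in DDI2-KO, or 182 ± 14.7 and 357 ± 31.4 CPM (SD, n = 2 each). The groups did not overlap, and Slc25a5 rose by 0.97 on the log2 scale (standard error 0.18, edgeR adjusted p = 0.0406). Of its 50-base stretches, 46.6% also occur in transcripts of 9 other genes, so reads from those stretches cannot be assigned to 1 gene and its count is less certain than that of Slc25a3. Slc25a4, or ANT1, the heart and muscle form, had 244 and 300 reads in WT against 355 and 237 in DDI2-KO, with a log2 fold change of 0.50 and an adjusted p of 0.237. On the per-kilobase level Slc25a5 exceeded Slc25a4 by 33.9 and 28.4 times in WT and by 39.5 and 46.4 times in DDI2-KO, so ANT2 was by far the main ADP/ATP carrier transcript in every library.

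The remaining nucleotide carriers had log2 fold changes of either sign, and none of them passed the test. The nucleotide class held 9 carriers, of which 7 were tested, 4 with a positive and 3 with a negative log2 fold change, 1 of them called, with a median of 0.50. Slc25a25, a calcium-regulated exchanger of ATP-Mg and phosphate, had 2728 and 1593 reads in WT against 3498 and 5304 in DDI2-KO. It had the largest positive log2 fold change of the family, 1.46 with a standard error of 0.32, and an edgeR adjusted p of 0.0646. The replicates within each genotype were far apart, and the value ranged from 1.04 without DDI2-KO replicate 2 to 1.83 without WT replicate 1, where it passed the threshold. Its relative Slc25a23 was the main ATP-Mg/phosphate carrier in liver, with 16989 and 15765 reads in WT against 9411 and 9577 in DDI2-KO, a log2 fold change of -0.38 and an adjusted p of 0.232. The ratio of Slc25a23 to Slc25a25, a pair compared after the values were seen, was 9.25 and 14.7 per kilobase in WT and 3.995 and 2.68 in DDI2-KO, and by the coding transcript 6.10 and 9.70 in WT and 2.64 and 1.77 in DDI2-KO. Slc25a24, the third calcium-regulated member, was low, at 0.89 CPM per kilobase, with a log2 fold change of -0.037 (adjusted p = 0.955).

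The pyrimidine nucleotide carriers Slc25a33 and Slc25a36, which share substrates, stood on opposite sides of 0. Slc25a33, named after its values were seen, had 217 and 188 reads in WT against 269 and 288 in DDI2-KO, with a log2 fold change of 0.87 and an edgeR adjusted p of 0.0638. Slc25a36 had 207 and 144 reads in WT against 65 and 83 in DDI2-KO, with a log2 fold change of -0.82 and an adjusted p of 0.134. Neither passed, and the groups did not overlap in either gene. Stretches shared with a single other gene made up 12.6% of Slc25a33 and 11.8% of Slc25a36. The summed level of the nucleotide class was 218 and 229 CPM per kilobase in WT and 329 and 324 in DDI2-KO, to which Slc25a5 contributed most.

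**Figure D3:**
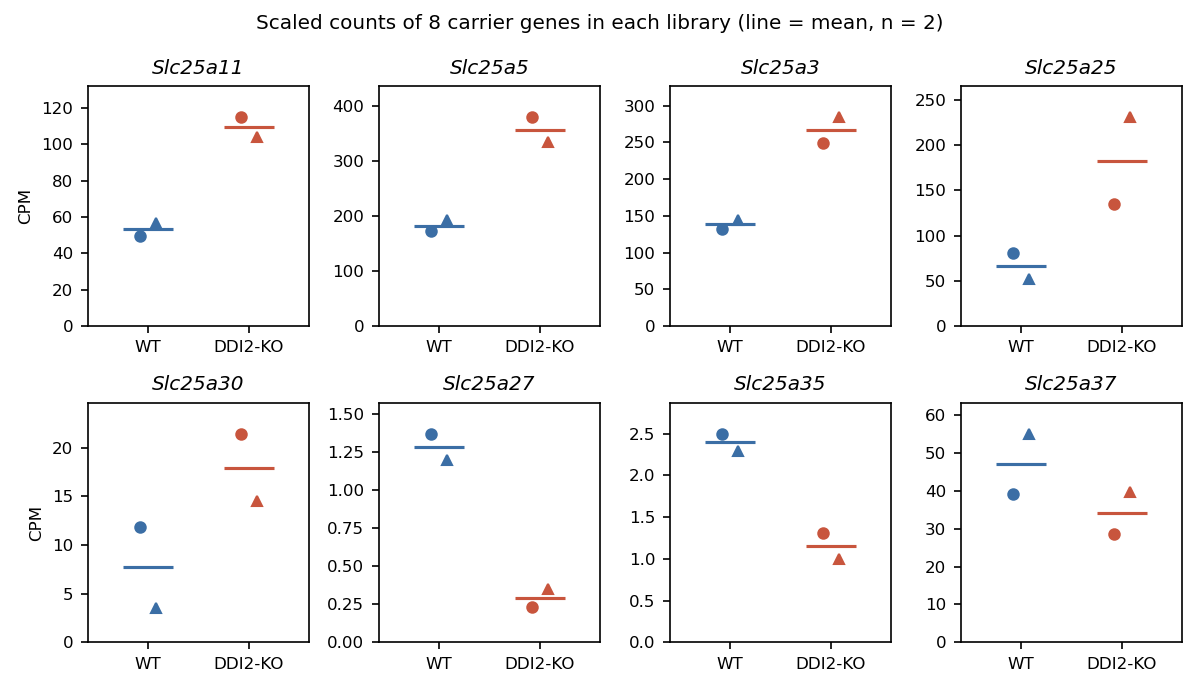
Scaled counts (CPM) of 8 carriers in each library, with replicate 1 as circles, replicate 2 as triangles and a line at the mean of each genotype (n = 2). Slc25a11, Slc25a5 and Slc25a3 have close replicates and separate genotypes, whereas the replicates of Slc25a25 and Slc25a30 lie far apart and the genotypes of Slc25a37 overlap.

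Among carriers of dicarboxylates and tricarboxylates, the 2-oxoglutarate/malate carrier rose in DDI2-KO. Slc25a11 (ENSMUSG00000014606; chromosome 11, 70644196 to 70647479) works in the malate-aspartate shuttle, which moves reducing equivalents of NADH into the matrix. It had 1670 and 1753 reads in WT against 2974 and 2397 in DDI2-KO, or 53.2 ± 4.997 and 110 ± 7.49 CPM (SD, n = 2 each). The genotypes did not overlap, and the log2 fold change was 1.04 with a standard error of 0.17 and an edgeR adjusted p of 0.0302. No stretch of 50 bases of Slc25a11 occurs in another gene, though 8.92% of its exon bases lie in exons of Rnf167 on the opposite strand. Rnf167 stood at a log2 fold change of 0.056 (adjusted p = 0.874), and whether reads were counted by strand is not given in the sources used here.

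All 4 carriers of this class had positive log2 fold changes, with a median of 0.42, and 1 passed the test. Slc25a1, the citrate carrier and the member at the highest level, had 6515 and 5232 reads in WT against 5801 and 4281 in DDI2-KO, with a log2 fold change of 0.18 and an adjusted p of 0.605. Slc25a10, which carries malate and succinate against phosphate, and Slc25a21, a carrier of oxodicarboxylates, had log2 fold changes of 0.20 and 0.63 with adjusted p-values of 0.669 and 0.325 in the same edgeR test. The genotypes overlapped for Slc25a1 and Slc25a10. The summed level of the class was 143 and 133 CPM per kilobase in WT and 200.3 and 161 in DDI2-KO, and the sums of DDI2-KO lay above those of WT.

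No amino acid carrier passed the test, and their log2 fold changes lay between -0.56 and 0.38. Of 9 carriers 7 were tested, 5 with a positive and 2 with a negative log2 fold change, and the median was 0.14. Slc25a13, or citrin, the aspartate/glutamate carrier of the liver, had 6170 and 4932 reads in WT against 5388 and 3929 in DDI2-KO, with a log2 fold change of 0.14 and an edgeR adjusted p of 0.684. Slc25a12, or aralar, the form known from brain and muscle, had 498 and 483 reads in WT against 433 and 454 in DDI2-KO, with a log2 fold change of 0.26 and an adjusted p of 0.406. Per kilobase, Slc25a13 exceeded Slc25a12 by 23.95 and 19.7 times in WT and by 24.1 and 16.7 times in DDI2-KO, ranges that overlapped.

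Slc25a15, the ornithine/citrulline carrier of the urea cycle, was next in level to citrin at 40.2 CPM per kilobase. By the coding transcript the order of the pair was inverse, at 66.0 for Slc25a15 and 57.9 for Slc25a13. Slc25a15 stood at a log2 fold change of 0.38 (edgeR adjusted p = 0.229). Slc25a44, which carries branched-chain amino acids, stood at 24.8 CPM per kilobase with a log2 fold change of 0.36 (adjusted p = 0.238). The lowest log2 fold change of the class, -0.56, was that of the glutamate carrier Slc25a22, with 5322 and 4309 reads in WT against 3159 and 1846 in DDI2-KO and an adjusted p of 0.182. Slc25a38, the glycine carrier needed for heme synthesis, was at -0.29 (adjusted p = 0.405), and Slc25a29, a carrier of basic amino acids, at 0.053 (adjusted p = 0.955).

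The carnitine/acylcarnitine carrier Slc25a20, which brings long-chain fatty acids as carnitine esters to beta-oxidation, was higher in both DDI2-KO libraries but did not pass. It had 2460 and 1562 reads in WT against 2629 and 1969 in DDI2-KO, or 61.9 ± 15.99 and 93.6 ± 11.2 CPM (SD, n = 2 each). The log2 fold change was 0.60 with a standard error of 0.21 and an edgeR adjusted p of 0.143.

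The 2 mitoferrins, which import iron for heme and iron-sulfur clusters, were not called in either direction. Slc25a37, or mitoferrin 1, the form of red cell precursors, had 1313 and 1699 reads in WT against 742 and 910 in DDI2-KO, with a log2 fold change of -0.46 and an edgeR adjusted p of 0.259. Slc25a28, or mitoferrin 2, had 404 and 384 reads in WT against 312 and 223 in DDI2-KO, with a log2 fold change of -0.17 and an adjusted p of 0.652. The genotypes overlapped in both genes. Slc25a37 was above Slc25a28 per kilobase of exon union in every library, by 1.48 to 2.75 times, but by the coding transcript the ratio was 0.87 to 1.63 and their order was not resolved. All 5 tested erythroid markers had negative log2 fold changes, with a median of -1.14. Of these Hba-a1 was past the threshold, at -1.94 with an adjusted p of 0.0338, and Alas2 overlapped between the genotypes, at -0.35. Their sums were 109 and 210.1 CPM in WT and 79.3 and 68.3 in DDI2-KO. The part of red cell RNA in the Slc25a37 values was not tested.

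The uncoupling class held the lowest log2 fold change of the family, though no member passed the test. Of its 6 genes 4 were tested, 1 with a positive and 3 with a negative log2 fold change. Slc25a27, also called UCP4 and known mainly from brain, had 46 and 37 reads in WT against 6 and 8 in DDI2-KO. The genotypes were far apart at a low level, 1.28 ± 0.121 against 0.29 ± 0.0822 CPM (SD, n = 2 each), with a log2 fold change of -2.14, a standard error of 0.45 and an edgeR adjusted p of 0.0516. The adjusted p ranged from 0.00461 without a filter on low counts to 0.219 without WT replicate 1, while the log2 fold change stayed between -2.44 and -1.87.

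Ucp2, the uncoupling protein known from macrophages and other cells, made up most of the level of this class. It had 2107 and 1352 reads in WT against 1184 and 695 in DDI2-KO, with overlapping genotypes, a log2 fold change of -0.49 and an edgeR adjusted p of 0.283. The summed level of 6 Kupffer cell and macrophage markers was 488 and 399 CPM in WT and 548 and 476 in DDI2-KO, which overlap. Of the 6, 4 had positive log2 fold changes and 2 negative ones, Cd68 at -0.62 and Marco at -0.33, and none passed the threshold. The part of these cells in the Ucp2 values was not tested. Slc25a30, a close relative of Slc25a14, had 399 and 110 reads in WT against 555 and 333 in DDI2-KO. Its log2 fold change of 1.22 had a standard error of 0.61 and an adjusted p of 0.314, and it ran from 0.60 without WT replicate 2 to 2.34 without WT replicate 1. Slc25a14, or UCP5, differed by -0.065 (adjusted p = 0.923).

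Carriers of glutathione and coenzymes formed a class without calls. Of the 8 described here, all tested, 5 had a positive and 3 a negative log2 fold change, and the median was 0.063. Slc25a39, a carrier of glutathione, had 9295 and 9347 reads in WT against 7830 and 4525 in DDI2-KO, with a log2 fold change of -0.21 and an edgeR adjusted p of 0.619. Its relative Slc25a40 had 157 and 142 reads in WT against 103 and 110 in DDI2-KO, with a log2 fold change of -0.08 and an adjusted p of 0.869. Neither sign was stable, since Slc25a39 turned positive without DDI2-KO replicate 2, as did Slc25a40 without DDI2-KO replicate 1 and after correction for length and GC content. Slc25a39 exceeded Slc25a40 per kilobase by 125 to 231 times over the 4 libraries, and by 68.0 to 126 times by the coding transcript. Slc25a17, the peroxisomal carrier of coenzyme A and related cofactors, named after its values were seen, had 1341 and 1254 reads in WT against 1568 and 1641 in DDI2-KO. Its log2 fold change was 0.71 with an adjusted p of 0.0572, just short of the threshold. Slc25a16, linked to coenzyme A, and Slc25a26, which carries S-adenosylmethionine, were at 0.47 and 0.44 with non-overlapping genotypes and adjusted p-values of 0.137 and 0.306. Slc25a42, a carrier of coenzyme A, was at -0.21 and Slc25a32, a carrier of folate or FAD, at 0.097, with overlapping genotypes. The NAD carrier Slc25a51 was at 0.029 with an adjusted p of 0.943.

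Of the 9 carriers left unassigned here, 7 were tested and none passed, with a median log2 fold change of 0.086. Slc25a47 led the class, with 6137 and 6518 reads in WT against 8469 and 5149 in DDI2-KO, a log2 fold change of 0.49 and an edgeR adjusted p of 0.225. Its DDI2-KO replicates were 327 and 224 CPM, a wider spread than the 183 and 211 CPM of WT. Slc25a35 had 84 and 71 reads in WT against 34 and 23 in DDI2-KO, a log2 fold change of -1.04 and an adjusted p of 0.113. Its exons overlap those of Rangrf on the opposite strand over 31.3% of their bases, and Rangrf, with 18 and 19 reads in WT against 8 and 10 in DDI2-KO, stood at -0.63 (adjusted p = 0.483). Slc25a46, a member of the outer membrane, was at -0.31 (adjusted p = 0.411). Slc25a34, Slc25a45, Slc25a48 and Slc25a53 lay between -0.20 and 0.21.

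**Figure D4:**
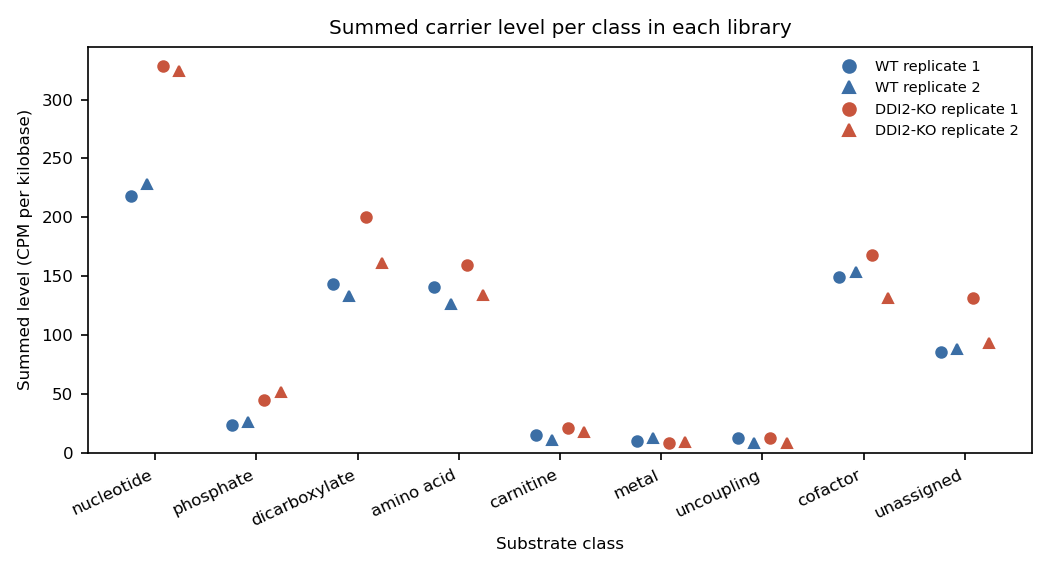
Summed level (CPM per kilobase) of the carriers of each substrate class in each library, with WT in blue and DDI2-KO in red, replicate 1 as circles and replicate 2 as triangles. The nucleotide sums were 218 and 229 in WT and 329 and 324 in DDI2-KO, whereas the genotypes overlapped for the amino acid, uncoupling and cofactor classes.

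Summed by class, the DDI2-KO libraries lay above both WT libraries for the nucleotide, phosphate, dicarboxylate, carnitine and unassigned carriers, below both for the metal carriers, and overlapped them for the rest. The ratio of mean sums was 1.93 for phosphate, 1.51 for carnitine, 1.46 for nucleotide, 1.31 for dicarboxylate and 1.30 for unassigned carriers, and 1.10 for amino acid, 0.99 for cofactor, 0.98 for uncoupling and 0.77 for metal carriers. The family as a whole summed to 798 and 787 CPM per kilobase in WT and to 1074 and 930.4 in DDI2-KO. Single carriers weighed heavily in these sums. Slc25a5 had a mean level of 111 in WT and 217 in DDI2-KO. Slc25a47, with 79.4% of the unassigned level, had 65.9 and 92.3. Of the 42 tested carriers, 16 had negative log2 fold changes. Across the 42 tested carriers, the log2 fold change and the mean level had a Spearman correlation of 0.35, given as a description of points that share the same 4 libraries.

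Genes that work with the carriers gave 2 further rises. Of 29 such genes all were tested, 21 with a positive and 8 with a negative log2 fold change. In the positive direction 2 passed the test, beside 1.33% of all tested genes called higher and 2.53% called in either direction. Mpc2, a subunit of the mitochondrial pyruvate carrier, which is not of the Slc25 family, had 2833 and 2880 reads in WT against 4340 and 4148 in DDI2-KO, with a log2 fold change of 0.97, a standard error of 0.17 and an edgeR adjusted p of 0.0353. Me1, the cytosolic malic enzyme that makes NADPH from exported citrate carbon, had 2529 and 2408 reads in WT against 6187 and 5659 in DDI2-KO, with a log2 fold change of 1.66, a standard error of 0.17 and an adjusted p of 0.0103. Both genes had close replicates and no overlap. Of the stretches of Me1, 32.8% also occur in other genes. Without either WT library only Me1 remained past the threshold.

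By group, the 7 transporters, which comprise the divergent carriers Mtch1 and Mtch2, the pyruvate carrier and the VDAC pores of the outer membrane, all had positive values with a median of 0.57. Vdac1 was at 0.57 on the log2 scale (edgeR adjusted p = 0.110), and Vdac3 and Mtch2 had 0.69 and 0.65 (adjusted p = 0.0618 and 0.0708). The 4 genes of citrate export had a median of 0.68, with Cs, citrate synthase, at 0.70 (adjusted p = 0.0644). Of the 4 enzymes of the malate-aspartate shuttle, in which Slc25a11 and Slc25a13 act, Mdh1 was at 0.64 (adjusted p = 0.097) and Got1 at -0.20 (adjusted p = 0.703), and none passed. The 3 genes of the carnitine shuttle had a median of 0.31 and the 6 of iron use a median of 0.17, with none past the test. The 5 enzymes of the urea cycle, for which Slc25a15 carries ornithine, had negative values from -0.46 to -0.0039 with overlapping genotypes, and none passed.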

How the data were processed

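Liver mRNA of 2 WT and 2 DDI2-KO mice was sequenced, and the authors deposited raw counts of reads per Ensembl gene in 1 file per library, without normalization. The submitters' processing notes name cutadapt 1.8, STAR 2.5.2b, HTSeq 0.6.1 and GRCm38, and the annotation and strand setting of the counting are not given in the sources used here. Summary lines of the counting program were left out. Reads counted to no feature amounted to 5.11% and 4.70% of the gene reads in WT and 2.53% and 3.65% in DDI2-KO. GENCODE M21 (GRCm38) gave symbols, coordinates and lengths for 48349 of 48709 identifiers.

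Counts were tested with edgeR 4.0.16 in R 4.3.3 (genotype only; glmQLFit, robust, then glmQLFTest) after filterByExpr and TMM scaling, and Benjamini-Hochberg adjustment over 13699 genes at 0.05. The standard error was the log2 fold change over the square root of F. The study's own methods name a moderated test of limma, run here as limma-voom and limma-trend. CPM values are TMM-scaled. In a single set of simulated counts with known changes, the share of false calls was above the 0.05 that the adjustment aims at. A call is therefore taken as weaker evidence than its adjusted p states. The study calls the replicates biological, but no label ties them to separate animals, so p-values measure the spread between these samples, which may be in part technical. Replicates differed beyond sampling noise, with a chi-square per degree of freedom of 69.7 in WT and 37.4 in DDI2-KO.

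Carriers, substrate classes, related genes and markers were chosen with earlier results of these data known. The genes given in every library are the carriers past the threshold, the highest of each class, the 5 largest positive and 5 largest negative log2 fold changes, Ucp1 to Ucp3 and 4 pairs with a shared substrate. The values of 1 carrier, which is counted in the totals of the family, and of 1 marker are not reported here. Alternatives were RLE and upper-quartile factors, library totals, DESeq2 1.42.0, limma 3.58.1 (voom, or trend with 2 as prior count), dropping the filter or asking for a mean of 1 CPM, estimation that was not robust, a replicate block, each library left out, offsets for length and GC content (lowess span 0.3), a threshold of 0.10 and the longest transcript as length. The coding transcript as length, exon overlaps and shared stretches were examined after seeing the data. Stretches of 50 bases were searched in all annotated transcripts.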

Additional observations from a re-analysis of the deposited data

How the results depend on the processing

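There were 2 libraries per genotype, and the effect of depth was not tested. The 3 carriers called higher became 6 with DESeq2, 1 with limma-voom, 7 without a filter, 1 without robust estimation, 6 with a replicate block and 6 at a threshold of 0.10, and 0 to 3 when a library was left out. The count of 0 called lower became 1 without a filter, with a replicate block, with offsets and at 0.10, in each case Slc25a27. The 2 related genes past the threshold became 7 with DESeq2, 7 without a filter, 6 with a replicate block, 4 with offsets and 7 at 0.10, and 1 to 3 with a library left out. The median log2 fold change of 0.10 ran from 0.025 to 0.26 with a library left out. The replicate block called 1108 genes in all against 346, and the deviations of same-numbered libraries correlated at 0.0588, so the numbers were not taken to pair samples. All-gene calls ran from 136 with limma-voom to 1544 without a filter, and 52.6% of them were higher in the main comparison, 39.7% with upper-quartile factors, 60.8% with library totals, 61.4% with offsets and 37.4% without WT replicate 2. Of 329 log2 fold changes of the 22 named genes under the alternatives, 303 kept direction and side of the threshold, 13 fell out of the calls, 9 came in and 4 changed sign. The sign changes were Slc25a40 with offsets, at 0.16, and, with a library left out, Slc25a39 (-0.55 to 0.073), Slc25a13 (-0.0013 to 0.29) and Slc25a40 (-0.21 to 0.051). With the longest transcript 14 of 21 mean levels moved by more than the replicate spread, and with the coding transcript 18. The cause of these shifts was not tested.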

Other observations

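Genes of oxidative phosphorylation were read beside the ADP/ATP and phosphate carriers, a choice made after the data were seen. Of 17 genes with an Atp5 symbol, the subunits and partners of ATP synthase, 14 had positive and 3 negative log2 fold changes, 3 passed edgeR's test in the positive direction, and in none did the genotypes overlap (28.0% of all tested genes lay wholly higher and 27.7% wholly lower). Atp5g3, a copy of the membrane c subunit, stood at 1.51 (adjusted p = 0.0185), Atp5mpl at 0.98 (adjusted p = 0.0338) and Atp5e, the epsilon subunit, at 0.81 (adjusted p = 0.0417). The catalytic subunits Atp5a1 and Atp5b stood at 0.39 and 0.59, with adjusted p-values of 0.281 and 0.108. Atp5g2, which encodes the same c subunit as Atp5g3 from another gene, stood at -1.05 (adjusted p = 0.200). Of 46 genes with a Nduf symbol, which marks subunits of respiratory complex I and related genes, 38 had positive values and 3 passed. Of 18 genes with symbols from Cox4 to Cox8, 12 were tested, 9 had positive values and 1 passed. For Uqcr symbols the counts were 7 of 8 and 1, while 1.33% of all tested genes were called higher.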
